A study of Homo sapiens with 6 samples.

Results

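Of the 17114 gene symbols in the deposited tables, 9 genes of cell-cell junctions were followed, all found by symbol: the claudin genes CLDN1, CLDN4, CLDN11 and CLDN12, the tight junction membrane genes OCLN and F11R, the plaque genes TJP1 and CGN, and the gap junction gene GJA1. They were chosen by name and not by their values, although with earlier results of these data known. RNA came from 786-O, a long-established line of human clear cell renal carcinoma, in 3 libraries of cells given XMU_MP_1 and 3 of cells given Vehicle. XMU-MP-1 is a small molecule that inhibits MST1 and MST2, kinases of the Hippo pathway, and the study's title concerns YAP, TEAD4 and NF-κB in this carcinoma. The labels describe the exposure as a transfection, and the sources used here give neither dose and time nor what the vehicle was. All libraries are of 1 cell line. The labels do not say that replicates were separate cultures, so the spread behind each p-value may be technical.

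Tight junctions close the space between neighbouring epithelial cells. Claudins form the strands that seal it or let chosen ions through, occludin and the JAM proteins lie in the same membrane zone, and scaffold proteins such as ZO-1 and cingulin tie the strands to actin. Gap junctions are channels of connexins that join the cytoplasm of adjacent cells, and connexin 43, the product of GJA1, is among the most widely expressed of them. In the kidney the claudin made by each tubule segment is known to set which ions pass between its cells.

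Values are FPKM, fragment counts divided by transcript length and library total, so levels of different genes can be compared. Depth per library is unknown. The summed FPKM ran from 495351 to 527709 in XMU_MP_1 libraries and from 454889 to 487218 in Vehicle libraries. Within groups, XMU_MP_1 replicates 1 and 2 and Vehicle replicates 1 and 3 were closest, with an SD of log2 differences of 0.0699 and 0.0904 over 3950 genes, against 0.142 to 0.154 for the other pairs of a group. XMU_MP_1 replicate 3 and Vehicle replicate 2 thus stood apart from their groups. All 10 listed markers of renal epithelium and this carcinoma were in the tables and 9 were tested as described below. Of these, 6 were lower with XMU_MP_1, 1 was higher and 2 did not pass. Over all tested genes 25.9% were lower and 32.0% higher. Summed, the 10 markers ran from 3815 to 4080 FPKM with XMU_MP_1 and from 4490 to 4717 with Vehicle. Most of each sum was VIM, at 3106 to 3297 FPKM with XMU_MP_1 and 3457 to 3662 with Vehicle. PAX8, a kidney lineage factor gene, was the higher one, at 122 to 133 FPKM with XMU_MP_1 and 113 to 116 with Vehicle. Its call (limma adjusted p = 0.0206) was lost in 6 of 15 alternatives, among them both rescalings (adjusted p = 0.0667 and 0.344) and leaving out Vehicle replicate 1 or 3 or XMU_MP_1 replicate 2 (0.0803, 0.0638 and 0.0634). HAVCR1, the gene of the tubular injury marker KIM-1, averaged 13.0 ± 1.59 against 43.6 ± 5.37 FPKM and LHX1, a nephron lineage factor gene, 6.99 ± 0.685 against 17.4 ± 0.852. The keratin genes KRT8 (371 ± 21.3 against 516 ± 2.98) and KRT18 (178 ± 12.8 against 286 ± 13.2), NNMT (29.3 ± 2.22 against 46.9 ± 4.26) and CDH6 were also lower. PAX2 and VIM did not pass. VIM was nonetheless lower in every XMU_MP_1 library than in any Vehicle library. It passed as lower in 5 of 15 alternatives, without Vehicle replicate 2 for example (limma adjusted p = 0.0325). AQP1, a proximal tubule water channel gene, did not exceed 0.14 FPKM in any library. The part of these markers in the junction results was not tested. Of the listed markers of endothelial cells, blood cells and fibroblasts, CD68 was at 31.1 to 32.2 FPKM with XMU_MP_1 and at 31.1 to 33.0 with Vehicle. The other 8 in the tables stayed at or below 0.76 FPKM, with sums of 0.81 to 1.31 with XMU_MP_1 and 1.32 with Vehicle in each library, and VWF and CDH5 were listed at 0 in all XMU_MP_1 libraries. Less RNA per cell and fewer cells making it cannot be told apart in such bulk samples.

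All 9 are protein-coding in GENCODE release 29 (GRCh38). Among them CLDN1 spans 190305701 to 190322475 on chromosome 3 (minus strand), CLDN4 73799542 to 73832693 and CLDN12 90383721 to 90513402 on chromosome 7 (plus strand), TJP1 29699367 to 29968865 on chromosome 15 (minus strand) and GJA1 121435577 to 121449727 on chromosome 6 (plus strand). Sequence upstream of 3 of the 4 genes that fell, those with a motif match, is shown because the study's title names transcription factors. RefSeq windows of 250 bases before a start (GRCh38.p14) were held for 8 of the 9 genes, 13 windows in all. They were searched on both strands for 4 motifs: GGAATG (TEAD), TGANTCA (AP-1), CAGGTG (the E-box of Snail and ZEB factors) and the NF-κB consensus. The printed stretches run 5′ to 3′ on the strand of the gene, with motif matches in capitals, none of which overlap. They stop at most 30 bases past a GENCODE start of the gene or before the next gene's exon, and lie at chr3:190322447-190322540 on the minus strand (CLDN1), chr7:73830746-73830892 on the plus strand (CLDN4) and chr6:121435396-121435606 on the plus strand (GJA1).
CLDN1: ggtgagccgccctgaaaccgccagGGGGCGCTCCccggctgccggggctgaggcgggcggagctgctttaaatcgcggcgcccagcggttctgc
CLDN4: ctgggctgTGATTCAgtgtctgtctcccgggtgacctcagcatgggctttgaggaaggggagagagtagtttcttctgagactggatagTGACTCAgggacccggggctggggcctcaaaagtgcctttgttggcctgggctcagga
GJA1: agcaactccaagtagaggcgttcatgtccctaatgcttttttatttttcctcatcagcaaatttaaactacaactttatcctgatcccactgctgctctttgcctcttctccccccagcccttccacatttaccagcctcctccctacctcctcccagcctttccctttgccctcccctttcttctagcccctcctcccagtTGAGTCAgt
In CLDN1 the capitals mark an NF-κB consensus match from 70 to 61 bases before the RefSeq start, a motif held by 9.95% of 34943 such windows. CLDN4 held AP-1 matches from 242 to 236 and from 161 to 155 bases before its RefSeq start, both inside its GENCODE span. GJA1 held 1 from 48 to 42 bases before its RefSeq start, and 6.59% of windows hold the motif. The GENCODE start of GJA1 lies 69 bases before its RefSeq start, so this match falls past the GENCODE start. CAGGTG, held by 17.5% of windows, was found at 1 of 4 starts of TJP1 and at both starts of OCLN. GGAATG, held by 11.9% of windows, was not found in any of the 13. CLDN12, also lower with XMU_MP_1, has 1 window, which held none of the 4 motifs. A match is a string of letters and not a shown binding site. CLDN1 has a neighbour that is read the opposite way: a GENCODE transcript of the claudin gene CLDN16 starts 66 bases from the GENCODE start of CLDN1. CLDN16 was at 0.23 ± 0.0361 FPKM with XMU_MP_1 and 0.32 ± 0.0693 with Vehicle (SD, n = 3 each), too low to test.

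XMU_MP_1 was accompanied by lower transcript levels of the claudin genes CLDN1, CLDN4 and CLDN12 and of the connexin gene GJA1, while the scaffold gene TJP1 and the JAM-A gene F11R did not pass the test. Each gene with a mean of at least 1 FPKM was tested with limma on log2(FPKM + 1), a scale that understates the change of low genes, with Benjamini-Hochberg adjustment over all 11151 tested genes and a threshold of 0.05. Of the 9 genes, 6 reached that mean, 4 fell and 0 rose. The mean was taken over all 6 libraries, so a gene above 1 FPKM in only 1 group could be tested. Among genes named below, CLDN2, ILDR2, PLEKHA7, GJA3 and F2RL3 were tested in this way. Over all tested genes 25.9% fell and 32.0% rose, 57.9% in either direction. Without adjustment, 5 of the 6 were lower at p under 0.05 and 0 were higher, against 27.8% lower and 34.6% higher over all tested genes. The same 4 were those whose XMU_MP_1 libraries all lay below all Vehicle libraries, as 28.7% of all tested genes did, while 35.0% lay wholly above. With libraries rescaled to equal sums, 39.5% of all calls were rises, against 55.3% without rescaling, and these 4 genes still passed as lower. That rescaling also raised the FPKM of every library, so the added 1 FPKM weighed less.

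**Figure D1:**
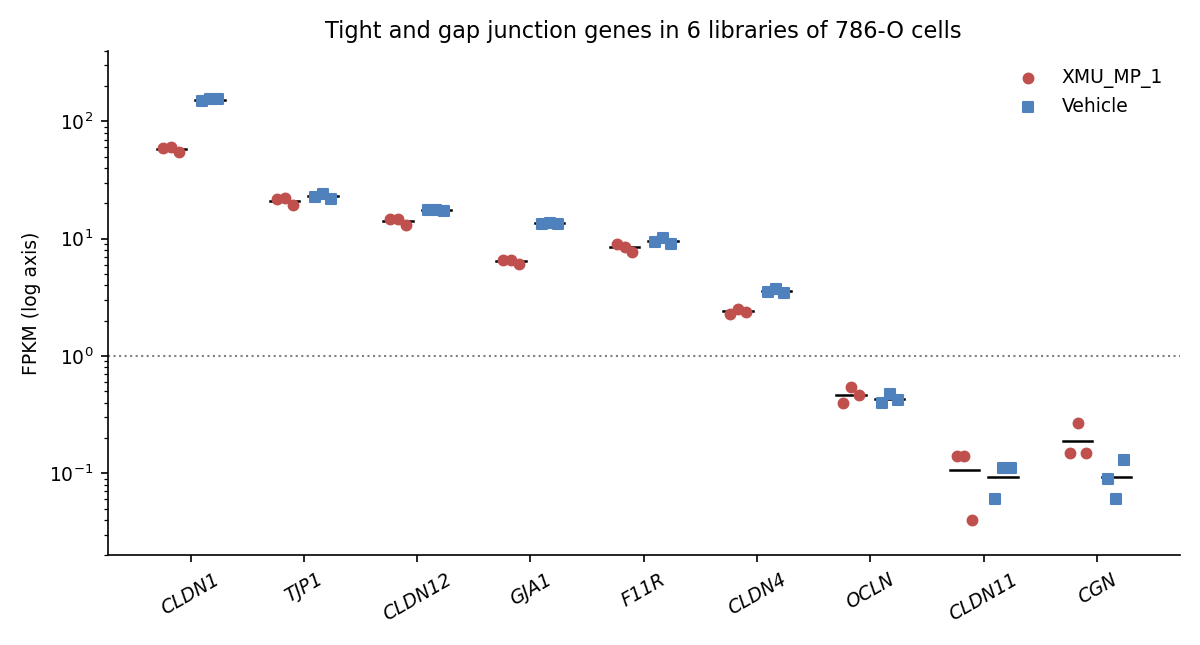
FPKM (log axis) of the 9 genes in every library, XMU_MP_1 as circles and Vehicle as squares, with a line at each group's mean and a dotted line at 1 FPKM, the mean needed for testing. CLDN1, CLDN12, GJA1 and CLDN4 are lower in every XMU_MP_1 library than in any Vehicle library, and OCLN, CLDN11 and CGN lie below 1 FPKM throughout.

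CLDN1, the gene of a claudin that seals the space between cells, was the most abundant of the 9 in every library. It was at 59.6, 60.5 and 54.87 FPKM in XMU_MP_1 replicates 1 to 3 and at 149.61, 156.14 and 154.52 FPKM in Vehicle replicates 1 to 3. The groups lay far apart, and XMU_MP_1 replicate 3 was the lowest library. The means were 58.3 ± 3.02 and 153.4 ± 3.4 FPKM, a 2.63-fold fall (log2 change -1.38 ± 0.0543, SE; limma adjusted p = 1.38e-08). In rank among all symbols the gene was at place 1441 with XMU_MP_1 and 490 with Vehicle, and 1.03% of tested genes had a more negative log2 change.

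CLDN12, whose product is known to lack the C-terminal motif by which most claudins bind ZO proteins, was the next most abundant of the genes with a numbered CLDN symbol. It was at 14.72, 14.84 and 13.14 FPKM with XMU_MP_1 and at 17.42, 17.7 and 17.22 FPKM with Vehicle. The groups did not overlap, but the difference was small, at 14.2 ± 0.949 against 17.4 ± 0.241 FPKM (1.23-fold lower, log2 change -0.28 ± 0.0605, limma adjusted p = 0.0025). GENCODE places this gene in overlap with GTPBP10 and CDK14 on the same strand, so the assignment of reads between them is uncertain.

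CLDN4, which encodes a claudin known from the distal nephron and collecting duct, was expressed at a far lower level. It was at 2.28, 2.53 and 2.38 FPKM with XMU_MP_1 and at 3.5, 3.7 and 3.47 FPKM with Vehicle, again with no overlap. The means were 2.4 ± 0.126 and 3.56 ± 0.125 FPKM, 1.48-fold lower with XMU_MP_1 (log2 change -0.42 ± 0.0675, limma adjusted p = 0.000321). CLDN11, a claudin gene known from myelin and from Sertoli cells, was close to the lower end of the scale at 0.14, 0.14 and 0.04 FPKM with XMU_MP_1 and 0.06, 0.11 and 0.11 FPKM with Vehicle. It was not tested, and its groups overlapped.

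The changes of CLDN1 and CLDN12 were compared by the ratio of their FPKM within each library. This ratio of CLDN1 to CLDN12 was 4.05, 4.08 and 4.18 with XMU_MP_1 and 8.59, 8.82 and 8.97 with Vehicle. It was lower in every XMU_MP_1 library than in any Vehicle library, and the exact two-sided permutation test gave p = 0.1, the smallest that 3 against 3 libraries allow, and an adjusted p of 0.1 over 2 such ratios. The 19 genes with a numbered CLDN symbol in the tables, which leave out the claudin-like genes CLDND1 and TMEM235, summed to 91.2, 93.4 and 87.9 FPKM with XMU_MP_1 and to 188.9, 197.5 and 195.2 FPKM with Vehicle. CLDN1 made up 64.2% ± 1.59 of that sum with XMU_MP_1 and 79.1% ± 0.115 with Vehicle (SD, n = 3 each). Of these genes, those other than CLDN1 summed to 32.5 ± 0.781 and 40.5 ± 1.07 FPKM. With CLDND1 and TMEM235 included, the sum was 165.8 ± 2.64 FPKM with XMU_MP_1 and 239.7 ± 3.4 with Vehicle, and the share of CLDN1 was 35.2% ± 1.45 and 64.0% ± 0.666.

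**Figure D2:**
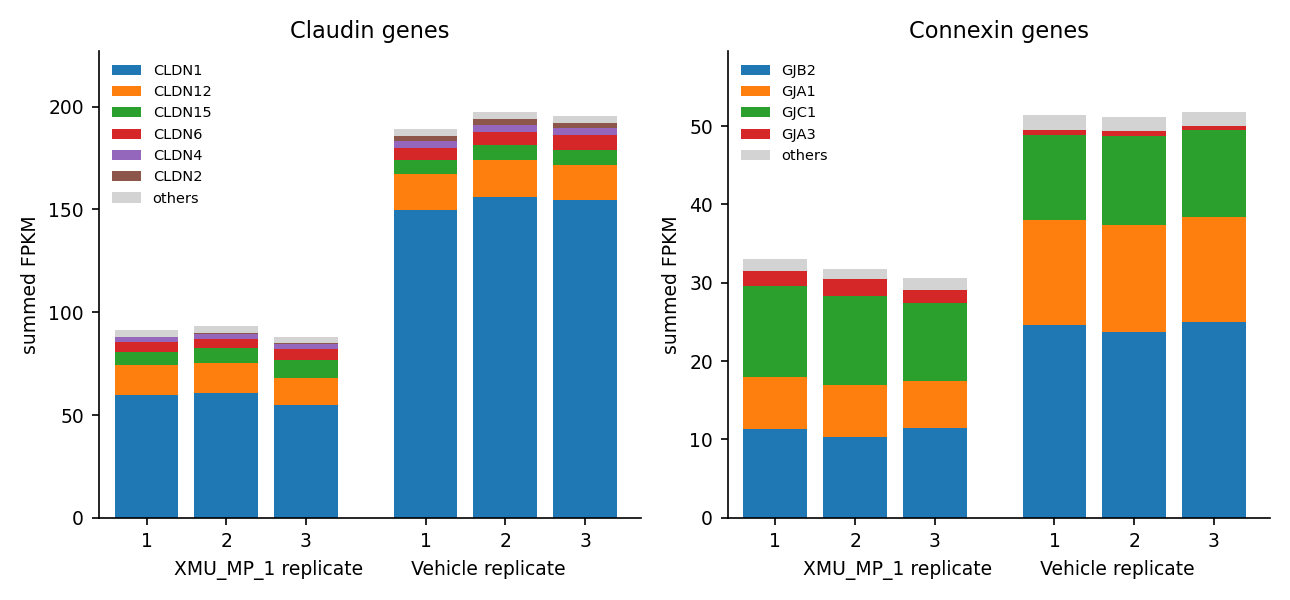
Summed FPKM of the 19 claudin genes with a numbered CLDN symbol (left) and connexin genes (right) in each library, XMU_MP_1 replicates left of Vehicle replicates, with segments for the named genes and grey for all others. CLDN1 is the main claudin segment in every library and is smaller with XMU_MP_1, and the GJB2 and GJA1 segments are smaller with XMU_MP_1 while that of GJC1 is of similar height.

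The other claudin and claudin-like genes did not all follow. Of 23 listed symbols, 17 were in the tables and 4 were tested, of which 2 fell and 1 rose (25.9% and 32.0% over all tested genes). CLDN2, which encodes a pore for cations and water in the proximal tubule, was at 0.24, 0.58 and 0.44 FPKM with XMU_MP_1 and at 2.25, 2.54 and 2.17 with Vehicle. Its means differed 5.52-fold (log2 change -1.23, limma adjusted p = 1.81e-06), and only its Vehicle values brought it to the mean needed for testing. CLDN6, known mainly from embryonic epithelia, fell 1.31-fold to 4.82 ± 0.264 FPKM with XMU_MP_1, against 6.3 ± 0.773 with Vehicle (adjusted p = 0.00695). CLDN15 averaged 7.47 ± 1.31 and 7.39 ± 0.222 FPKM and did not pass (adjusted p = 0.987). CLDND1, whose product has a claudin-like domain, was the gene that rose, to 75.0 ± 1.0 FPKM with XMU_MP_1, against 45.8 ± 1.79 with Vehicle (adjusted p = 9.85e-07). The other listed claudin genes in the tables were too low to test, with differences in both directions: CLDN14 was at 0.193 ± 0.11 FPKM with XMU_MP_1 and 0.733 ± 0.0404 with Vehicle, and CLDN9 at 0.467 ± 0.177 and 0.15 ± 0.0173.

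Occludin and JAM-A are the other tight junction membrane proteins whose genes were followed. OCLN was low, at 0.4, 0.54 and 0.46 FPKM with XMU_MP_1 and at 0.4, 0.47 and 0.42 FPKM with Vehicle. Its groups overlapped and it was not tested, and GENCODE lists a pseudogene, OCLNP1, on the same chromosome whose reads may be shared with it. F11R, the gene of JAM-A, an immunoglobulin-like adhesion protein of tight junctions, was at 9.08, 8.49 and 7.77 FPKM with XMU_MP_1 and at 9.43, 10.12 and 9.06 with Vehicle. The highest XMU_MP_1 library lay just above the lowest Vehicle library. F11R did not pass (log2 change -0.16, 95% interval -0.316 to -0.000821, limma adjusted p = 0.0786), but did in 3 of 15 alternatives, among them median-ratio scaling (-0.19, adjusted p = 0.0375) and libraries rescaled to equal sums (-0.26, adjusted p = 0.0439). The gene overlaps a longer annotated transcript unit on its strand, another reason for care with its level.

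Of 16 genes on a list of other tight junction membrane and associated proteins, 8 were tested, 3 fell and 1 rose. The shares over all tested genes were 25.9% and 32.0%. CLMP, which encodes an adhesion protein related to the coxsackievirus and adenovirus receptor, fell 2.23-fold to 19.3 ± 0.994 FPKM with XMU_MP_1, against 43.0 ± 1.07 with Vehicle (limma adjusted p = 6.55e-08). ILDR2, an angulin gene of tricellular contacts, fell to 0.793 ± 0.133 FPKM, against 1.83 ± 0.18 with Vehicle, and MARVELD1 fell 1.4-fold. TJAP1, the gene of a tight junction-associated protein, rose 1.25-fold. LSR, also an angulin gene, measured 20.7 ± 0.21 and 22.1 ± 0.931 FPKM and did not pass (adjusted p = 0.17).

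TJP1 and CGN encode the plaque proteins ZO-1 and cingulin. TJP1 was the second most abundant of the 9 genes in every library, at 21.71, 22.2 and 19.46 FPKM with XMU_MP_1 and at 22.64, 24.26 and 21.83 FPKM with Vehicle. The groups overlapped, with a log2 change of -0.11 and a 95% interval of -0.256 to 0.0299 (limma adjusted p = 0.157). CGN was at 0.15, 0.27 and 0.15 FPKM with XMU_MP_1 and at 0.09, 0.06 and 0.13 with Vehicle. These values did not overlap, but they are too low for the test. With no filter on low values the log2 change of CGN was 0.12 and missed the threshold (limma adjusted p = 0.0725), as did those of OCLN and CLDN11 (adjusted p = 0.628 and 0.796).

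Of 28 plaque and polarity genes in all, 22 were tested, 7 fell and 5 rose, against 25.9% and 32.0% of all tested genes. PARD3, which encodes a polarity scaffold, fell 1.79-fold (limma adjusted p = 4.81e-07), MYLK, the myosin light chain kinase gene, 1.84-fold, and ARHGEF2, whose RhoA activator is held at tight junctions by cingulin, 1.41-fold. YBX3, which encodes a ZO-1-binding transcription factor, measured 159.4 ± 3.84 and 158.3 ± 1.48 FPKM (adjusted p = 0.874). The genes that rose were MAGI3, LIN7C, ARHGEF11, ARHGEF18 and ARHGAP17.

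**Figure D3:**
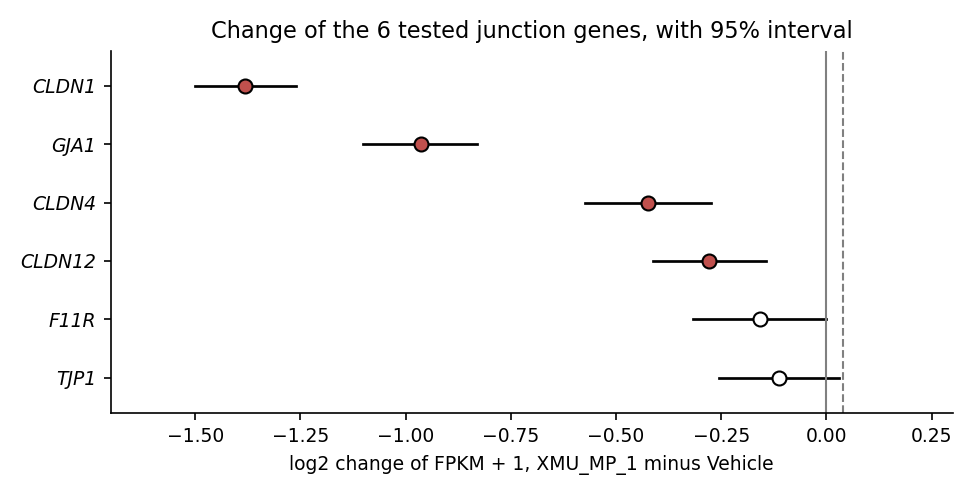
Log2 change of FPKM + 1, XMU_MP_1 minus Vehicle, of the 6 tested genes, with 95% intervals from limma, filled where the adjusted p was below 0.05. The dashed line is the median of all tested genes, 0.04, and the changes run from -1.38 for CLDN1 to -0.11 for TJP1.

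GJA1, the gene of connexin 43, was at 6.62, 6.63 and 6.05 FPKM with XMU_MP_1 and at 13.34, 13.72 and 13.41 FPKM with Vehicle. The replicates of each group were close together and the groups were widely separated. The means were 6.43 ± 0.332 and 13.5 ± 0.202 FPKM (2.1-fold lower, log2 change -0.96 ± 0.0606, limma adjusted p = 3.69e-07), and 2.97% of tested genes had a more negative change. In the order of the 9 genes GJA1 stood below F11R in every XMU_MP_1 library and above it in every Vehicle library. GENCODE lists an intronless pseudogene of it, GJA1P1, and reads shared with it could have been assigned to either.

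GJA1 was not the main connexin gene. GJB2, which encodes connexin 26, fell 2.22-fold, with 11.32, 10.32 and 11.46 FPKM in XMU_MP_1 libraries and 24.66, 23.66 and 25.04 FPKM in Vehicle libraries (limma adjusted p = 1.3e-07). GJC1, which encodes connexin 45, measured 10.9 ± 0.945 and 11.1 ± 0.245 FPKM and did not pass (adjusted p = 0.834). The ratio of GJA1 to GJC1 was 0.569, 0.586 and 0.614 in XMU_MP_1 libraries and 1.23, 1.21 and 1.21 in Vehicle libraries (exact two-sided permutation p = 0.1, the smallest possible, and 0.1 adjusted over 2 ratios). GJA1 held 20.3% ± 0.569 of the summed connexin FPKM with XMU_MP_1 and 26.2% ± 0.493 with Vehicle, GJB2 34.8% ± 2.53 and 47.5% ± 1.14, and GJC1 34.4% ± 1.92 and 21.5% ± 0.513. The sum over the 14 connexin genes in the tables was 31.8 ± 1.2 and 51.5 ± 0.306 FPKM.

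GJA3, a lens connexin gene, rose to 1.99 ± 0.225 FPKM with XMU_MP_1, against 0.643 ± 0.0833 with Vehicle (limma adjusted p = 7.02e-06). The pannexin genes PANX1 and PANX2, which encode channels related in shape to connexins, fell 1.28-fold and 1.97-fold. In all 5 other connexin and pannexin genes were tested, of which 3 fell and 1 rose, against 25.9% and 32.0% of all tested genes.

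Junction genes outside tight and gap junctions also fell more often than they rose, while over all tested genes 25.9% fell and 32.0% rose. Of 15 tested adherens junction genes 9 fell and 1 rose, among them the kidney cadherin gene CDH6 (8.62 ± 0.153 against 16.1 ± 0.495 FPKM), PLEKHA7 (0.49 ± 0.0173 against 1.56 ± 0.104), CDH11 and the vinculin gene VCL, at limma adjusted p of 6.16e-07, 4.99e-06, 5.87e-05 and 0.00011. CDH1, the E-cadherin gene, averaged 0.0867 ± 0.0289 FPKM with XMU_MP_1 and 0.117 ± 0.0115 with Vehicle, while CDH2, the N-cadherin gene, averaged 70.7 ± 6.69 and 83.7 ± 5.53 FPKM and fell (adjusted p = 0.0166). Of the catenin genes, CTNND1 fell to 32.1 ± 1.5 FPKM, against 38.3 ± 1.85 with Vehicle (adjusted p = 0.00332), while CTNNB1 and CTNNA1 did not pass (adjusted p = 0.238 and 0.25). Of 6 tested desmosome genes 3 fell and 1 rose. PKP3, the plakophilin-3 gene, fell 2.44-fold and EVPL, the envoplakin gene, 1.69-fold (adjusted p = 9.54e-07 and 8.54e-05). DSG2, the desmoglein-2 gene, fell 1.17-fold (adjusted p = 0.0414), a call that was lost without Vehicle replicate 1, 2 or 3 or XMU_MP_1 replicate 3 (adjusted p = 0.0503, 0.122, 0.0636 and 0.105). PERP rose 1.16-fold (adjusted p = 0.00986), a call that was lost with libraries rescaled to equal sums (adjusted p = 0.16).

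Transcription factor genes known for control of epithelial junctions went both ways, with 5 of 11 tested lower and 3 higher. The shares over all tested genes were 25.9% and 32.0%. SNAI2, SNAI1 and ZEB2, whose products repress junction genes, were lower, at 7.75 ± 0.704 against 13.0 ± 0.731 FPKM, 7.82 ± 0.888 against 11.1 ± 0.848 FPKM and 1.54 ± 0.218 against 2.8 ± 0.108 FPKM (limma adjusted p = 2.11e-05, 0.00073 and 0.0001). KLF5 and GRHL1 rose, 2.88-fold and 2.38-fold (adjusted p = 5.81e-07 and 1.49e-05). SNAI1 and ZEB2 are named here by a choice made after their values were seen.

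**Figure D4:**
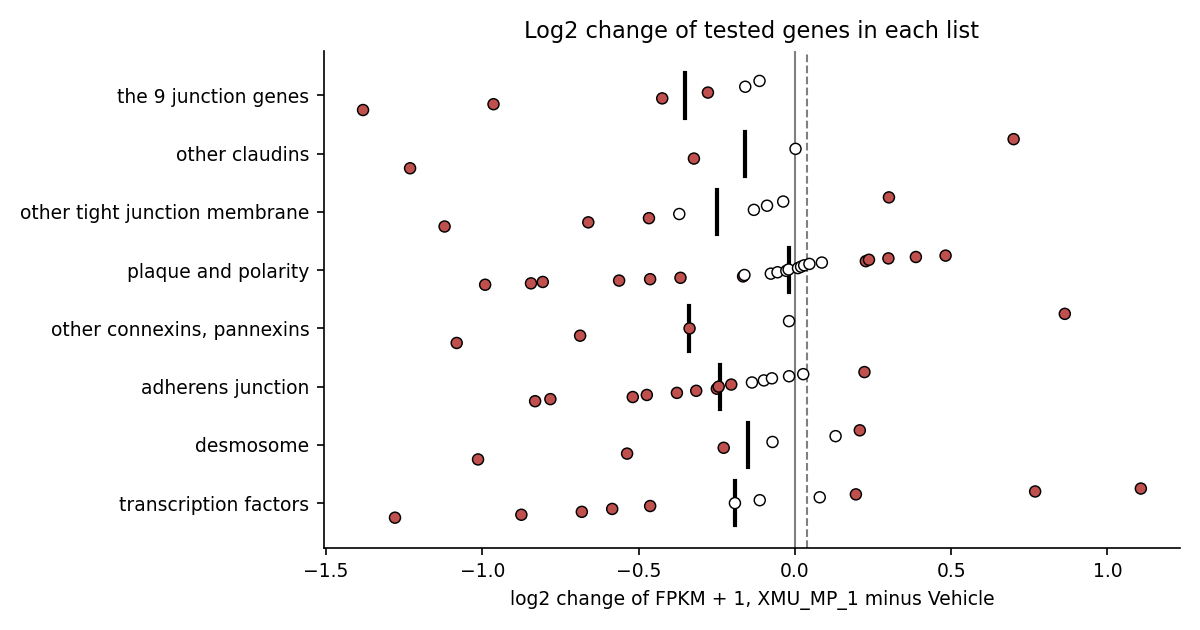
Log2 change of FPKM + 1, XMU_MP_1 minus Vehicle, of each tested gene by list, filled where the limma adjusted p was below 0.05, with a bar at the list's median and a dashed line at the median of all tested genes. The medians run from -0.35 for the 9 genes followed here (6 tested) to -0.02 for plaque and polarity genes, against 0.04 over all tested genes.

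Over the other 7 lists together, 71 of 146 genes were tested, 32 fell and 13 rose, against 25.9% and 32.0% of all tested genes. Their median log2 change was -0.14, against 0.04 over all tested genes, and the 6 tested genes followed here had a median of -0.35. These lists were chosen with earlier results known and carry no test of their own.

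The genes whose profiles over the 6 libraries were most like those of CLDN1 and GJA1 were found by the Euclidean distance between log2(FPKM + 1) values, each gene centred on its own mean. Nearest to CLDN1 were CAMKK1, F2RL3 and CRYBG1, at distances of 0.0888, 0.0891 and 0.102. Nearest to GJA1 was WWTR1, the gene of the YAP paralogue TAZ, at 0.0218, and KCNQ5 was the third nearest at 0.0678. WWTR1 was at 31.15, 31.44 and 29.25 FPKM with XMU_MP_1 and at 60.16, 61.78 and 59.77 FPKM with Vehicle, so its groups lay about as far apart on the log scale as those of GJA1. The distance is a description over 6 libraries in which many genes differ between the groups.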

How the data were processed

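Per the labels' protocols, 786-O cells were lysed in Trizol and their RNA was made into BGISEQ-500 libraries, and each of the 6 libraries has its own table. The authors deposited FPKM per gene symbol, per the file headers, and the submitters' processing notes name GRCh38. The sources used here do not name the aligner, quantifier, annotation or filter. FPKM are relative to a library's total, so a few abundant genes can shift all others, and depth is unknown. Nothing was rescaled.

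The test was limma 3.58.1 (in R 4.3.3, with statmod 1.5.0), fitted to log2(FPKM + 1) of genes averaging at least 1 FPKM, with only group in the model and with trend and robust moderation. The threshold was an adjusted p of 0.05, two-sided, and the script was tested on simulated data. Named genes are the 9 followed, up to 4 per other list with the smallest adjusted p, and the 3 nearest profiles of CLDN1 and GJA1. Some genes that this rule takes are not reported here, and other names were chosen after their values were seen. Members and lists were chosen with earlier results of these data known. Listed genes that are absent from the tables are not analysed here. Gene overlaps come from GENCODE release 29, and upstream sequences from RefSeq. Alternatives covered the pseudocount, filter, scaling, moderation, replicate block and left-out or averaged libraries. Rescaling to equal sums used a common sum above every deposited one, with the pseudocount kept at 1 FPKM.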

Additional observations from a re-analysis of the deposited data

How the results depend on the processing

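CLDN1, CLDN4, CLDN12 and GJA1 stayed lower and past the threshold in every alternative that tested them, with limma log2 changes of -1.48 to -1.33, -0.57 to -0.40, -0.38 to -0.22 and -1.11 to -0.91. TJP1 passed in none of 15, and F11R in 3. With libraries rescaled to equal sums, 2252 genes rose in place of 3567, and 7 other listed junction genes in place of 13. The log2 change of CLDN15, 0.0023 in the reported fit, was -0.0288 with median-ratio scaling, -0.0891 with equal sums, -0.0971 without Vehicle replicate 2 and XMU_MP_1 replicate 3 together, and -0.1173 to 0.097 with 1 library left out. The call of DSG2 was lost in 7 alternatives, 4 of them with 1 library left out, and that of PERP with equal sums or close pairs averaged. The cause was not tested.

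Libraries with the same replicate number did not all deviate together (r = -0.20, 0.39 and 0.24 for numbers 1 to 3). Correlations for 3 numbers are too few to decide whether same-numbered libraries were handled together. With the replicate block 3956 genes rose and 3093 fell, 5 of the 9 junction genes fell, F11R among them (adjusted p = 0.0459), and 13 other listed genes rose and 34 fell. XMU_MP_1 library 2 correlated best with the Vehicle library of its own number, and XMU_MP_1 libraries 1 and 3 did not. Unknown depth limits what can be said of OCLN, CLDN11 and CGN.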
